A study of Mus musculus with 6 samples.

Results

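Interferon-stimulated genes are the genes that a cell switches on when type I or type II interferon reaches its receptor. The 33 genes described here were taken from the deposited expression table by symbol, as gene rows named for well-known members of this response, out of 36210 gene rows in all. They were read in 6 RNA libraries of brain RNA of APP/PS1 mice aged 8 months, a line that carries mutant human amyloid precursor protein and presenilin transgenes and forms amyloid plaques. 3 libraries came from mice given AVE0991, a non-peptide agonist of the angiotensin-(1-7) receptor Mas, injected daily into the peritoneum at 10 mg per kg over 30 days. The other 3 came from mice given 0.9% saline, called vehicle here, by the same route and schedule. All 6 libraries are APP/PS1, so no library without the transgenes was compared, and the labels name neither the sex nor the promoter of the transgenes. Astrocytes of adult brain are the labelled cells. The labels state neither how these were isolated nor whether the libraries of a group are separate animals, so the p-values below measure only the spread between these libraries.

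In the pathway as it is generally understood, double-stranded RNA in the wrong place is detected by sensors such as RIG-I and MDA5. These act through Irf3 and Irf7 to start interferon production. Secreted interferon binds the Ifnar1 and Ifnar2 receptor chains, and the kinases Jak1 and Tyk2 then activate STAT proteins, Stat2 among them. Stat2 and Irf9 are subunits of a factor, ISGF3, that binds a short promoter sequence called the interferon-stimulated response element. In brain, interferon responses are known in microglia, astrocytes, endothelial cells and neurons, and have been described around amyloid plaques in mouse models.

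The core letters of this element occur in the promoters of a share of these genes. RefSeq promoter windows on GRCm38.p6, from 250 bases before to 50 bases after the start site, matched 24 of the 33 members by gene identifier. The core GAAANNGAAA, searched on both strands (the other strand reads TTTCNNTTTC), occurred in 12 of these 24 promoters (50%) and in 1079 of 27025 genes with a promoter in the table (3.99%). The interferon-gamma type site TTCNNNGAA, which reads the same on both strands, occurred in 6 of the 24 (25%) and in 2582 of the 27025 (9.55%); in the members' windows the motifs overlapped each other at 2 places. Matches are letter matches and no binding was measured. Windows without a core match came from members that stood higher in AVE0991 libraries, such as Oasl2, Irf9, Irf7 and Irf3. They also came from members that stood lower, such as Herc6, Samd9l, Ifit2 and Xaf1. Below are the promoters of the 6 members with a core match that had the smallest p in the comparison of the groups, followed by Herc6, the member of smallest p among all 33, whose window had no match. They are written 5′ to 3′ on the gene's own strand, with bases of core matches in capitals.
Stat2 (chr10:128270248-128270547, plus strand): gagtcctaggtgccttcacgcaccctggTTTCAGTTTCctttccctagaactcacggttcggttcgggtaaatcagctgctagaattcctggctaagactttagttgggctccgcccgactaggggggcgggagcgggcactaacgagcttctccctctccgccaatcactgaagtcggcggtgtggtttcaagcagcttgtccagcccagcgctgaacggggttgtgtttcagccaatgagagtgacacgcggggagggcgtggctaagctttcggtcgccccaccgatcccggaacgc
Ifit3 (chr19:34583279-34583578, plus strand): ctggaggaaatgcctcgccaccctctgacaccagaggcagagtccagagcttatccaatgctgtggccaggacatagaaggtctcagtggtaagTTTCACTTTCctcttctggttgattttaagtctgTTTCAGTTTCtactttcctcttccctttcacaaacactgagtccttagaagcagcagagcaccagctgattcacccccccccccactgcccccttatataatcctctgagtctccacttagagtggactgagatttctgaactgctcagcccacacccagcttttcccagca
Oas1a (chr5:120907476-120907775, minus strand): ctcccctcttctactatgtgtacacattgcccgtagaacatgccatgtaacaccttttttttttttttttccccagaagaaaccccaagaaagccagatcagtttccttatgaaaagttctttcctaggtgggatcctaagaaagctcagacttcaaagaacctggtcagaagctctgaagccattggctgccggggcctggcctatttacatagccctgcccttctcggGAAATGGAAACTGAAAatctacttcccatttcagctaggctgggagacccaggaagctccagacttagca
Ifitm3 (chr7:141010695-141010994, minus strand): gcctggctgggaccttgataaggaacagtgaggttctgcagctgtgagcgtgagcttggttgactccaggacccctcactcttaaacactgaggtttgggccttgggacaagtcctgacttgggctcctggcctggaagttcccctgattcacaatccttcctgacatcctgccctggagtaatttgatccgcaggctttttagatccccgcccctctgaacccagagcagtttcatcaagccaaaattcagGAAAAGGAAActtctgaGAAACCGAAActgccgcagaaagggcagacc
Bst2 (chr8:71537423-71537722, minus strand): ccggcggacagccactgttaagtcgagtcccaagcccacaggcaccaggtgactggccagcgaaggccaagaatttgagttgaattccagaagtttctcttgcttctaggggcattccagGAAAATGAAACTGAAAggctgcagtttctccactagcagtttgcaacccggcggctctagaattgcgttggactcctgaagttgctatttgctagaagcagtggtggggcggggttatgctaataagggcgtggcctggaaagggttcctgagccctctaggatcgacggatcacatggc
Ddx58 (chr4:40239776-40240075, minus strand): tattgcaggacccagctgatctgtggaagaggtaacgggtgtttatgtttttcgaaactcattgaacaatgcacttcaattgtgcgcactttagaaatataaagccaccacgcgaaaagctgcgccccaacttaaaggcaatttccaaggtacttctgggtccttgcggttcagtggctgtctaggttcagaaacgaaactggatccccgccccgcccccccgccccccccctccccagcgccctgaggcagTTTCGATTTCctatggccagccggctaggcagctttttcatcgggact
Herc6 (chr6:57580742-57581041, plus strand): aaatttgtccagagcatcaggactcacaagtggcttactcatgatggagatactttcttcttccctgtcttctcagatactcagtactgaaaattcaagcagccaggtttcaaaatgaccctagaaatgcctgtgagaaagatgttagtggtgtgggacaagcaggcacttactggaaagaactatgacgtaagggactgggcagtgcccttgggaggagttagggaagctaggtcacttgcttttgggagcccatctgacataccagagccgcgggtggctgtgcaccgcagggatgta
In Stat2 the match began 222 bases before the start site, in Ifit3 the matches began 156 and 122 bases before it, in Oas1a 20 and 14 bases and in Bst2 130 and 124 bases before it, the last 2 pairs as overlapping repeats of the core. In Ifitm3 and Ddx58 the matches lay in the 50 bases after the start site.

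The libraries held 44583296 to 50066692 estimated counts on gene rows. Levels are given as CPM, the share of a library's counts on the usual CPM scale after TMM scaling, which aligns the bulk of genes between libraries. Among all 20363 genes tested, edgeR's quasi-likelihood test called 7 higher and 169 lower in AVE0991 libraries at an adjusted p under 0.05. AVE0991 replicates 2 and 3 stood apart from the other 4 libraries in cerebellar genes. The summed level of 10 cerebellar granule cell markers was 272, 2248.4 and 2199.8 CPM in the AVE0991 libraries (replicates 1, 2 and 3) but 295, 277 and 236 CPM in the vehicle libraries. The astrocyte marker Gfap, a filament protein, was present in every library, at 541, 519 and 589 CPM in AVE0991 and 436, 484 and 346 CPM in vehicle libraries, and Aqp4, a water channel, at 87.1 to 291 CPM in AVE0991 and 104 to 143 CPM in vehicle libraries. The labels name astrocytes, but markers of neurons were abundant in every library too. Summed over 12 neuron markers, the level was 5178.5 to 5637.9 CPM in AVE0991 and 5520.7 to 6283.2 CPM in vehicle libraries. Over 12 astrocyte markers it was 10019.3 to 11157.7 CPM in AVE0991 and 8361.6 to 9894.7 CPM in vehicle libraries. In RNA of mixed cells fewer cells of a type and less RNA per cell cannot be told apart.

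The comparison asked whether interferon-stimulated genes stood at another level in AVE0991 than in vehicle libraries. All 33 members passed the filter on low counts. No member was called in either direction by edgeR, where 0.0344% of all genes tested were called higher and 0.830% lower. The members split unevenly around 0: 28 stood above 0 and 5 below, with a median log2 fold change of 0.31, while all genes tested had a median of -0.01 and 49.3% above 0. The member median was 0.51 without AVE0991 replicate 1 and 0.19 without AVE0991 replicate 2, and lay between 0.21 and 0.43 when any other single library was left out. At an unadjusted p under 0.05, edgeR had 6 members higher (Stat2, Oasl2, Ifit3, Irf9, Oas1a and Dhx58) and 3 lower (Herc6, Samd9l and Ifit2), where 10.9% of all genes were higher and 12.7% lower at that level. DESeq2 called 3 members higher (Stat2, Ifit3 and Oasl2, with 3.92% of all genes) and 2 lower (Herc6 and Samd9l, with 5.56%). Limma-voom with quality weights called Stat2 higher (2.58% of all genes) and Herc6 and Samd9l lower (3.78%). EdgeR called 0 members with RLE scaling (0.0344% of all genes higher, 0.575% lower), with upper-quartile scaling (0.0491% higher, 1.04% lower) and with circular RNA rows in the fit (0.00491% in each direction).

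Most members had a shape in common. In 20 of 33, AVE0991 replicates 2 and 3 both stood above every vehicle library while replicate 1 did not, a pattern found in 11.2% of all genes tested. Single libraries show the same: replicate 2 stood above every vehicle library in 23 members and replicate 3 in 24, against 37.1% and 34.7% of all genes, while replicate 1 did so in 2 members and stood below every vehicle library in 11, against 30.6% and 32.8% of all genes. The median of the 33 members, as the log2 ratio to the mean of the vehicle libraries, was -0.09, 0.45 and 0.47 in AVE0991 replicates 1, 2 and 3, and 0.13, -0.08 and -0.11 in vehicle replicates 1, 2 and 3. Summed over members, the level was 172, 273 and 265 CPM in AVE0991 libraries and 194, 192 and 177 CPM in vehicle libraries. Without AVE0991 replicates 2 and 3 the member median was -0.09 with 12 of 33 above 0, where 47.2% of all genes were above 0. Without AVE0991 replicate 1, edgeR called 7 members higher (Stat2, Ifit3, Oasl2, Irf9, Irf7, Irf3 and Oas1a) and 2 lower (Herc6 and Samd9l), where 6.63% of all genes were called higher and 4.76% lower.

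**Figure D1:**
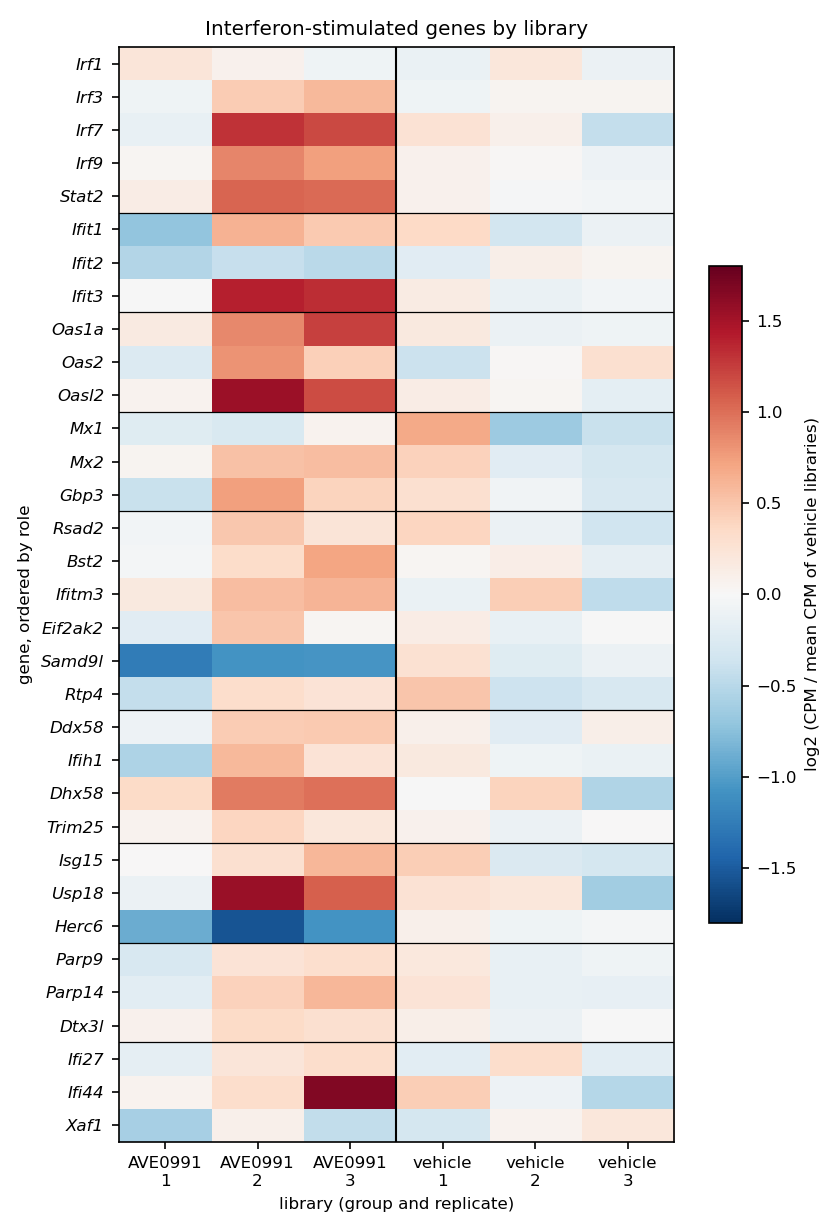
Log2 ratio of each member's CPM to its mean over the vehicle libraries, 1 row per gene ordered by role and 1 column per library. Red is above and blue below the vehicle mean; AVE0991 replicates 2 and 3 are red in most rows, AVE0991 replicate 1 is not, and Samd9l, Herc6 and Ifit2 are blue in all 3 AVE0991 libraries.

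The 5 transcription factors among the members all stood above 0, with a median log2 fold change of 0.59. Stat2, the interferon-specific subunit of ISGF3, was at 21.1, 39.9 and 39.0 CPM in the 3 AVE0991 libraries and 20.3, 19.0 and 18.7 CPM in vehicle libraries. It was the 1 member whose AVE0991 libraries all lay above all vehicle libraries, as 14.3% of all genes did, but replicate 1 exceeded the highest vehicle library only slightly. Its log2 fold change was 0.79 (SE 0.24, edgeR adjusted p = 0.132), a 1.73-fold difference. Irf9, the DNA-contacting subunit of ISGF3, was at 9.47, 17.1 and 15.4 CPM in AVE0991 libraries and 9.77, 9.37 and 8.65 CPM in vehicle libraries (0.59, SE 0.22, adjusted p = 0.175). Replicate 1 lay inside the vehicle range. Irf7, an inducible factor that amplifies interferon production, was at 2.47, 6.66 and 6.17 CPM in AVE0991 and 3.22, 2.88 and 2.01 CPM in vehicle libraries (0.92, SE 0.39, adjusted p = 0.219). Irf3, the factor present before any interferon is made, was at 13.5, 19.4 and 21.2 CPM in AVE0991 and 13.4, 14.7 and 14.7 CPM in vehicle libraries (0.34, SE 0.18, adjusted p = 0.288). Irf1, which responds early to interferon-gamma, had the smallest difference of the 5, at 5.72 ± 0.596 CPM in AVE0991 and 5.41 ± 0.724 CPM in vehicle libraries (SD, n = 3 each; log2 fold change 0.08), and its sign turned to -0.06 after a correction for GC content.

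**Figure D2:**
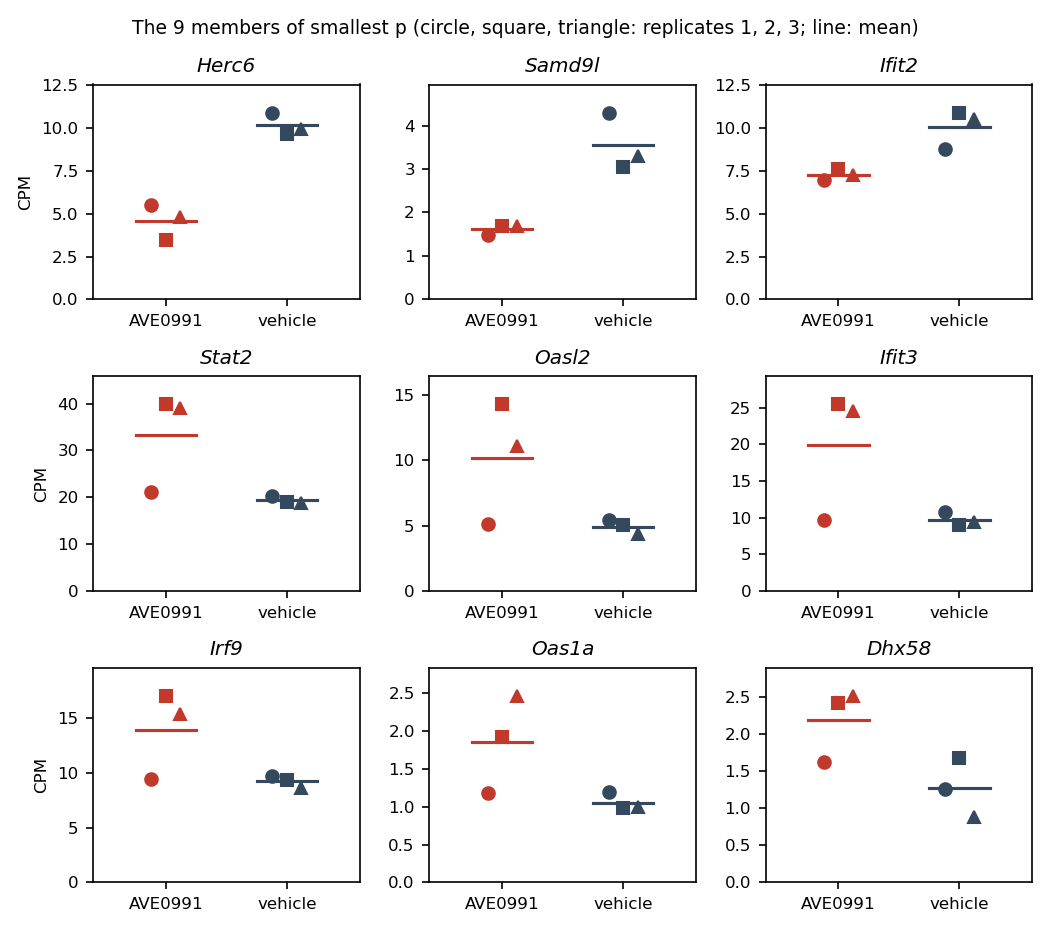
CPM of the 9 members of smallest p, with 1 point per library (circle, square and triangle for replicates 1, 2 and 3), AVE0991 left of vehicle, lines at the group means and axes from 0. In Stat2, Oasl2, Ifit3, Irf9, Oas1a and Dhx58 the AVE0991 circle lies near the vehicle points and the square and triangle above them; in Herc6, Samd9l and Ifit2 all AVE0991 points lie below all vehicle points.

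The IFIT proteins bind foreign RNA and hinder its translation. Their genes sit side by side and are usually induced together, yet in these libraries they differed in direction. Ifit3 was at 9.63, 25.5 and 24.5 CPM in AVE0991 libraries and 10.8, 8.98 and 9.34 CPM in vehicle libraries (log2 fold change 1.03, SE 0.35, adjusted p = 0.155). The close copy Ifit3b, which is no member, had 5.38, 14.4 and 13.0 CPM in AVE0991 and 6.55, 4.29 and 5.36 CPM in vehicle libraries (1.02, SE 0.38, adjusted p = 0.175), and reads of the pair may be split between them. Ifit2 was lower in all 3 AVE0991 libraries, at 6.98, 7.60 and 7.24 CPM, than in any vehicle library, at 8.77, 10.9 and 10.5 CPM (-0.47, SE 0.13, adjusted p = 0.122). No overlap of this direction was found in 16.3% of all genes. Ifit1, which recognises RNA lacking the methylation of host caps, was at 1.50, 3.77 and 3.40 CPM in AVE0991 and 3.15, 1.94 and 2.27 CPM in vehicle libraries (0.23, SE 0.38), with replicate 1 the lowest of all 6 libraries. After the GC correction Ifit3 stood at 1.04 and Ifit2 at -0.16.

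OAS enzymes make short oligoadenylates that activate RNase L. Oasl2, an OAS-like protein, was at 5.14, 14.3 and 11.1 CPM in AVE0991 libraries and 5.40, 5.03 and 4.34 CPM in vehicle libraries. Its log2 fold change was 1.05 (SE 0.36, adjusted p = 0.154). Oas1a was at 1.18, 1.92 and 2.47 CPM in AVE0991 and 1.19, 0.978 and 0.996 CPM in vehicle libraries (0.81, SE 0.32, adjusted p = 0.188). In both, replicate 1 lay inside the vehicle range. Oas2 was measured below 1 CPM in every library, at 0.439 to 0.914 CPM in AVE0991 and 0.397 to 0.637 CPM in vehicle libraries (0.39, SE 0.37).

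Of 3 GTPase genes, 2 stood above 0. Mx1, an influenza restriction factor that is defective in many laboratory mouse strains, stood at 0.337 ± 0.0433 CPM in AVE0991 and 0.370 ± 0.197 CPM in vehicle libraries, with a log2 fold change of -0.13 whose sign depended on vehicle replicate 1 (0.595 CPM; 0.41 without it). Mx2, its neighbour in the genome, stood at 0.914 ± 0.170 CPM in AVE0991 and 0.697 ± 0.200 CPM in vehicle libraries (0.39). Gbp3, a guanylate-binding protein, stood at 2.91 ± 1.06 CPM in AVE0991 and 2.33 ± 0.473 CPM in vehicle libraries (0.32).

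Among other antiviral effectors, Samd9l, a restriction factor that acts on translation, was the second member by p. It was at 1.48, 1.68 and 1.70 CPM in AVE0991 libraries and 4.30, 3.05 and 3.29 CPM in vehicle libraries, with no overlap and a 2.19-fold lower level (log2 fold change -1.13, SE 0.21, adjusted p = 0.0607). Ifitm3, a membrane protein that blocks virus entry and is also described as a modulator of gamma-secretase, was at 9.03, 11.7 and 12.2 CPM in AVE0991 and 7.36, 10.8 and 5.78 CPM in vehicle libraries (0.46, SE 0.25, adjusted p = 0.303), and the groups overlapped. Bst2, the tetherin that holds budding virus at the cell surface, stood at 4.71 ± 1.23 CPM in AVE0991 and 3.65 ± 0.349 CPM in vehicle libraries (0.37). Rsad2, the enzyme viperin, stood at 1.64 ± 0.301 CPM in AVE0991 and 1.39 ± 0.376 CPM in vehicle libraries (0.23). Eif2ak2, the RNA-activated kinase PKR, stood at 5.94 ± 1.53 CPM in AVE0991 and 5.40 ± 0.498 CPM in vehicle libraries (0.14). Rtp4, a receptor transporter protein, stood at 2.11 ± 0.549 CPM in AVE0991 and 1.99 ± 0.719 CPM in vehicle libraries (0.08), and its sign turned when any of 4 libraries was left out.

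The cytosolic RNA sensors all stood above 0 without passing. Dhx58, or LGP2, a helicase that tunes the other sensors, was at 1.62, 2.42 and 2.52 CPM in AVE0991 libraries and 1.26, 1.68 and 0.876 CPM in vehicle libraries (log2 fold change 0.78, SE 0.32, adjusted p = 0.202). Ddx58, which encodes RIG-I, stood at 8.57 ± 1.77 CPM in AVE0991 and 6.96 ± 0.810 CPM in vehicle libraries (0.30), and Ifih1, which encodes MDA5, at 5.64 ± 2.09 CPM in AVE0991 and 5.02 ± 0.583 CPM in vehicle libraries (0.17). Ifih1 was lowest in AVE0991 replicate 1, at 3.41 CPM. Trim25, a ubiquitin ligase that works with RIG-I, was at 12, 15.0 and 13.3 CPM in AVE0991 and 12.1, 10.7 and 11.6 CPM in vehicle libraries (0.23, SE 0.13, adjusted p = 0.303), so its groups overlapped by a small margin.

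The ISG15 system attaches a ubiquitin-like protein to other proteins, and its 3 members stood on both sides of 0. Isg15 itself was low, at 1.12, 1.37 and 1.70 CPM in AVE0991 and 1.52, 0.939 and 0.896 CPM in vehicle libraries (log2 fold change 0.32, SE 0.31). Usp18, which removes Isg15 and dampens the interferon receptor, was at 1.36, 4.33 and 3.09 CPM in AVE0991 and 1.76, 1.70 and 0.956 CPM in vehicle libraries (0.99, SE 0.46, adjusted p = 0.244). Herc6, the main Isg15 ligase of the mouse, was at 5.50, 3.46 and 4.83 CPM in AVE0991 libraries and 10.9, 9.65 and 9.94 CPM in vehicle libraries. The groups did not overlap, and Herc6 had the smallest p of all members, with a 2.21-fold lower level (log2 fold change -1.14, SE 0.19, adjusted p = 0.051). It passed in edgeR when genes under a mean of 1 CPM were left out (-1.17, adjusted p = 0.0435; 2.09% of all genes called lower, and 0 members higher with 0.114% of all genes). It also passed with no filter (-1.13, adjusted p = 0.0258; 1.12% lower, and 0 members higher with 0.172%), by DESeq2 (-1.12, adjusted p = 8.15e-05) and by limma-voom (-1.13, adjusted p = 0.0286). In edgeR it did not pass with RLE scaling (adjusted p = 0.0596), upper-quartile scaling (0.0545), circular rows in the fit (0.0639), the replicate block (0.125) or the GC correction (-0.65, adjusted p = 0.246). Leaving out 1 library at a time, its adjusted p was 0.0144 without AVE0991 replicate 1 and 0.0977 to 0.227 without any other.

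Parp9 and Dtx3l, partners in a complex that marks proteins with ADP-ribose and ubiquitin, stood at log2 fold changes of 0.11 and 0.24, and Parp14, a mono-ADP-ribosyltransferase, at 0.31. Their ranges were 2.69 to 4.06 CPM in AVE0991 and 2.99 to 3.75 CPM in vehicle libraries for Parp9, 8.35 to 10.1 CPM in AVE0991 and 7.34 to 8.55 CPM in vehicle libraries for Dtx3l, and 4.59 to 7.90 CPM in AVE0991 and 4.72 to 6.19 CPM in vehicle libraries for Parp14, all overlapping. Ifi27, a mitochondrial protein, stood at 25.4 ± 4.19 CPM in AVE0991 and 23.1 ± 4.85 CPM in vehicle libraries (0.14). Xaf1, which promotes cell death by antagonising the inhibitor XIAP, stood at 2.76 ± 0.713 CPM in AVE0991 and 3.36 ± 0.604 CPM in vehicle libraries (-0.28). Ifi44 was the scarcest member in vehicle libraries and its difference rested on 1 library, at 0.239, 0.283 and 0.726 CPM in AVE0991 and 0.309, 0.215 and 0.159 CPM in vehicle libraries (0.86, SE 0.54; 0.20 without AVE0991 replicate 3).

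Per transcript length, the members spanned a wide range. Ifi27 had the highest authors' FPKM, at 25.6 ± 3.57 in AVE0991 and 24.8 ± 5.76 in vehicle libraries. Ifitm3 followed with 18.0 ± 2.39 in AVE0991 and 13.9 ± 4.66 in vehicle libraries, and Irf3 with 11.1 ± 2.53 in AVE0991 and 9.41 ± 0.460 in vehicle libraries. At the low end, Oas2 had an FPKM of 0.223 ± 0.0306 in AVE0991 and 0.153 ± 0.0404 in vehicle libraries. Mx1 had 0.113 ± 0.0153 in AVE0991 and 0.137 ± 0.0723 in vehicle libraries, and Ifi44 had 0.147 ± 0.0896 in AVE0991 and 0.0833 ± 0.0252 in vehicle libraries. Isg15, often used as a reporter of interferon responses, had 1.93 ± 0.363 FPKM in AVE0991 and 1.63 ± 0.475 FPKM in vehicle libraries. FPKM was not rescaled by TMM, so it serves here to rank genes and not to compare groups.

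Over all genes base composition went with direction, and in the members it did so only in part. The 3 members below 0 with no overlap, a direction and separation found in 16.3% of all genes, had transcripts of 39.4% GC (Herc6), 38.8% (Samd9l) and 42.0% (Ifit2), and genes of low GC tended to stand lower in AVE0991 libraries. Of 4219 tested genes at or below 45% GC, 81.4% had a log2 fold change below 0, with a median of -0.32, against a median of 0.10 for 12645 genes above 45%. Of the members, Ifi44 at 40.4% GC stood at 0.86, and the other 2 below 0, Mx1 and Xaf1, had 47.3% and 47.4%. The 8 members at or below 45% GC had a median of 0.15, with 5 above 0, and the 25 members above 45% a median of 0.34, with 23 above 0. After the GC correction the medians were 0.37 and 0.33 for the members. For all genes of the same classes they were 0.01 and -0.00, near 0 by the design of the correction. Herc6 stood at -0.65 (adjusted p = 0.246) and Samd9l at -0.60 (adjusted p = 0.259) after it, 0 members were called (0.00491% of all genes higher and 0% lower), and 5 were higher and 2 lower at an unadjusted p under 0.05, where 7.84% of all genes were higher and 7.46% lower. What part base composition had in these differences beyond this correction was not tested.

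**Figure D3:**
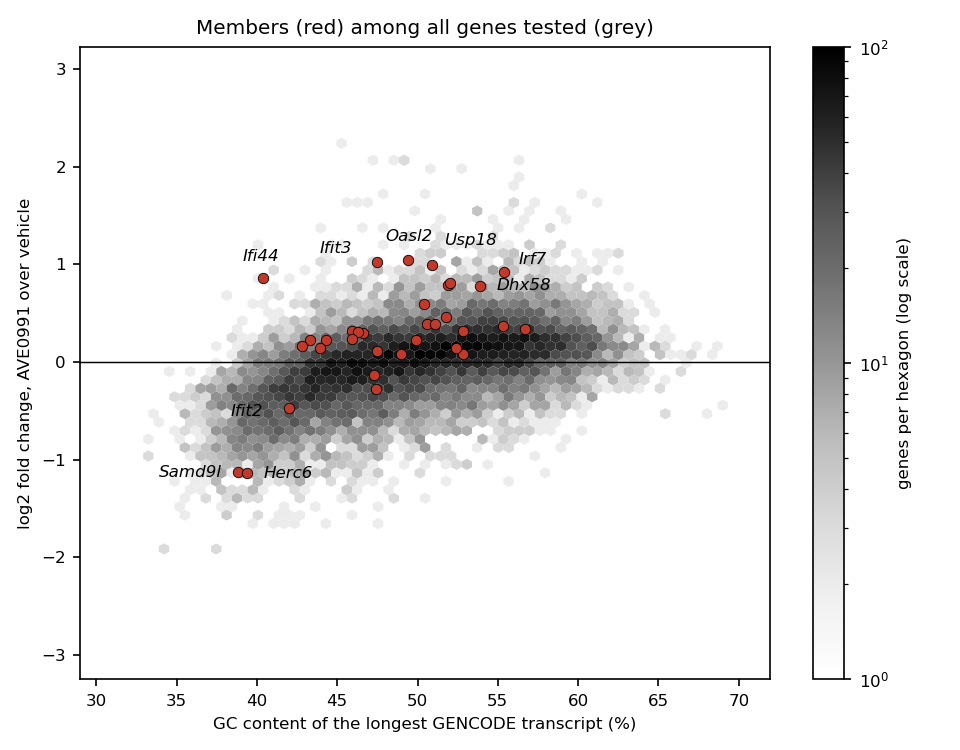
Log2 fold change of AVE0991 over vehicle against the GC content of each gene's longest GENCODE transcript, with members in red over all tested genes in grey (darker hexagons hold more genes, log colour scale; genes beyond the axes are not drawn). Samd9l, Herc6 and Ifit2 lie at the low-GC end, at 38.8%, 39.4% and 42.0%, and most other members lie above 0.

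**Figure D4:**
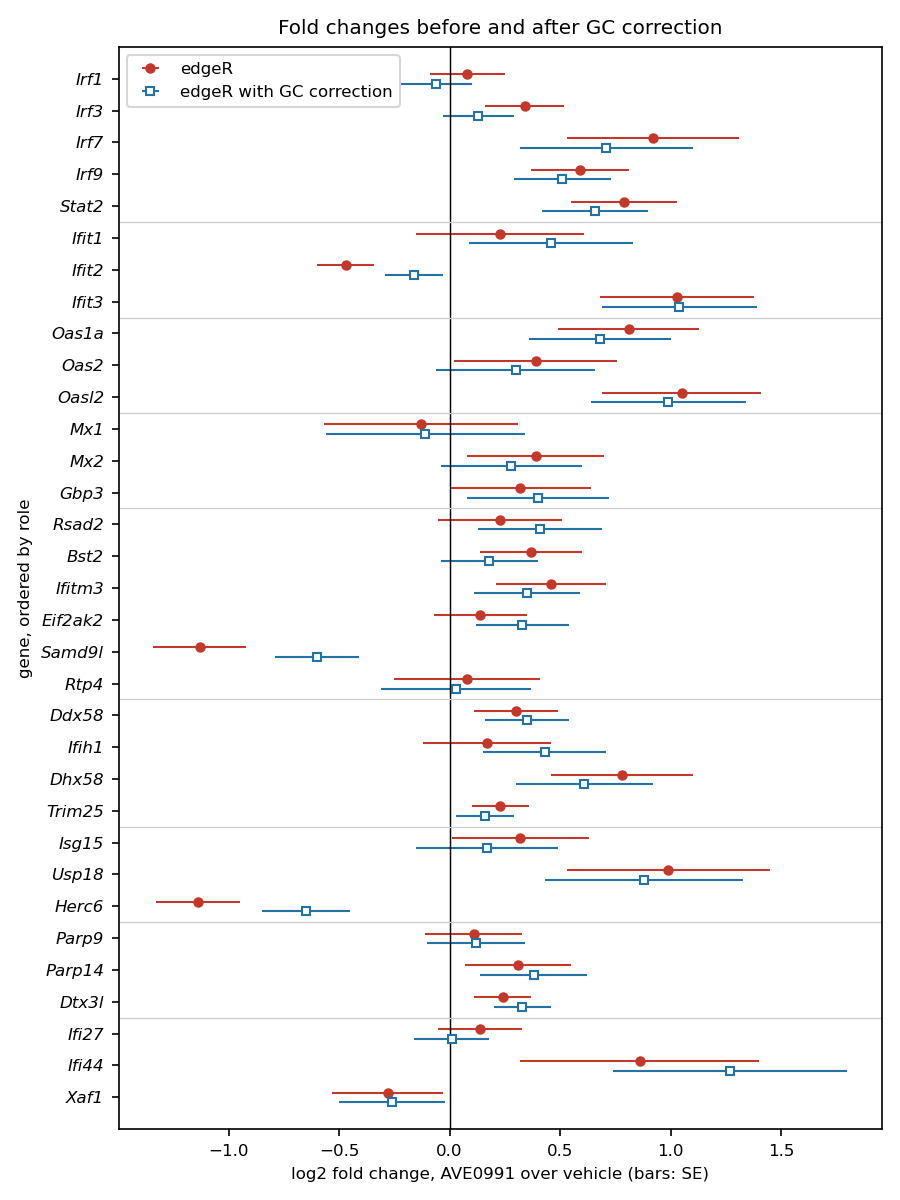
Log2 fold change with its SE for each member, ordered by role, from edgeR (red circles) and from edgeR with the GC correction (open blue squares). Herc6 goes to -0.65 and Samd9l to -0.60 with the correction, while Ifit3 stands at 1.03 and 1.04.

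The rest of the pathway was read from lists of other genes, none of which were called by edgeR. Interferon genes themselves were hardly counted: 6 of 20 listed ligand genes were in the table, none passed the filter on low counts, and their summed level was 0, 0.0218 and 0.0681 CPM in AVE0991 and 0.0441, 0 and 0.0199 CPM in vehicle libraries. A difference in them was not detectable at this depth. Of 11 receptor, kinase and STAT genes, 6 stood above 0 with a median of 0.03. The receptor chains Ifnar1 (log2 fold change 0.05, SE 0.10) and Ifnar2 (0.25, SE 0.11) and the kinases Jak1 (-0.04, SE 0.09) and Tyk2 (0.27, SE 0.18) had an adjusted p of 0.245 or more. Stat3, which answers to other cytokines as well, did not overlap between groups, at 68.9 to 81.3 CPM in AVE0991 and 58.5 to 65.8 CPM in vehicle libraries (0.29, SE 0.10, adjusted p = 0.172). Such a separation was found in 14.3% of all genes, and Stat3 stood at 0.15 with the GC correction.

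Of 19 genes of nucleic-acid sensing upstream of interferon, 14 stood above 0 with a median of 0.16. Mavs, the mitochondrial adaptor of RIG-I and MDA5, was at 17.3, 24.4 and 20.0 CPM in AVE0991 and 11.6, 13.9 and 14.9 CPM in vehicle libraries (log2 fold change 0.61, SE 0.16, adjusted p = 0.112). Aim2, a DNA sensor of inflammasomes, and Tlr7, an endosomal RNA receptor, were lower without overlap, at -0.81 (SE 0.25) and -0.72 (SE 0.26). They were the 2 of the 19 genes lower in this way, as 16.3% of all genes were. Another 4, Mavs among them, were higher without overlap, as 14.3% of all genes were. With the GC correction Mavs stood at 0.44, Aim2 at -0.54 and Tlr7 at -0.33. Of 10 negative regulators 6 stood above 0, led by Pias4 (0.39, SE 0.12), Irf2bp1 (0.31, SE 0.10) and Trex1 (0.40, SE 0.15), the DNase that limits DNA sensing. In that order they stood at 0.17, 0.10 and 0.18 with the GC correction, when 8 of the 10 regulators were above 0. Of 58 other interferon-induced genes tested 33 stood above 0, with a median of 0.10, so this wider list lay nearer to the median of all genes than the 33 members did. By p it was led by Iigp1, an immunity-related GTPase, with means of 0.363 CPM in AVE0991 and 0.892 CPM in vehicle libraries (-1.29, SE 0.27, adjusted p = 0.0774). Next came Pnpt1, a mitochondrial exoribonuclease, with 7.84 CPM in AVE0991 and 11.5 CPM in vehicle libraries (-0.56, SE 0.13), and Lgals3bp, a secreted galectin-binding protein, with 38.0 CPM in AVE0991 and 26.7 CPM in vehicle libraries (0.51, SE 0.15). With the GC correction Iigp1 stood at -0.80, Pnpt1 at -0.08 and Lgals3bp at 0.31.

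Markers of other cells were read beside the members, from lists chosen with earlier results of these data known. All 10 granule cell markers stood above 0, with a median log2 fold change of 2.81 and 0 called; Gabra6, a receptor subunit typical of these neurons, was at 1.18, 93.0 and 94.5 CPM in AVE0991 and 5.75, 1.76 and 1.55 CPM in vehicle libraries. All 10 Purkinje cell and Bergmann glia markers also stood above 0, with summed levels of 1342.1, 3168.7 and 4485.3 CPM in AVE0991 and 1334.8, 1037.5 and 1283.2 CPM in vehicle libraries. AVE0991 replicates 2 and 3 were thus high in cerebellar markers and in the 20 members named by the common pattern, and the part of cerebellar RNA in the members' levels was not tested. Astrocyte markers stood above 0 in 11 of 12 (median 0.54, 0 called), with per-library medians of 0.29, 0.74 and 0.60 in AVE0991 replicates 1, 2 and 3 and -0.07 to 0.10 in vehicle libraries. Microglial markers, in contrast, stood above 0 in 6 of 12, with sums of 641, 440.3 and 540.4 CPM in AVE0991 and 559, 492 and 517 CPM in vehicle libraries, so the lowest sum was that of AVE0991 replicate 2. Of 11 tested markers of border macrophages and infiltrating leukocytes 2 stood above 0, with sums over all 15 listed of 34.8, 17.3 and 21.7 CPM in AVE0991 and 37.2, 27.9 and 36.9 CPM in vehicle libraries. Of 12 endothelial markers 2 stood above 0, with sums of 146, 332 and 191 CPM in AVE0991 and 171, 303 and 188 CPM in vehicle libraries. Of the other lists, mature oligodendrocyte markers stood above 0 in 4 of 10, pericyte and smooth muscle markers in 4 of 10, choroid plexus and ependyma markers in 1 of 10, forebrain neuron markers in 2 of 10 and red blood cell markers in 0 of 6 tested. Forebrain neuron markers were lowest in AVE0991 replicate 2, with sums of 4658.3, 1141.7 and 3691.1 CPM in AVE0991 and 4829.6, 3104.0 and 2919.5 CPM in vehicle libraries. No marker was called, and Hbb-b1, a globin, was the 1 marker at 0 in all 6 libraries.

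**Figure D5:**
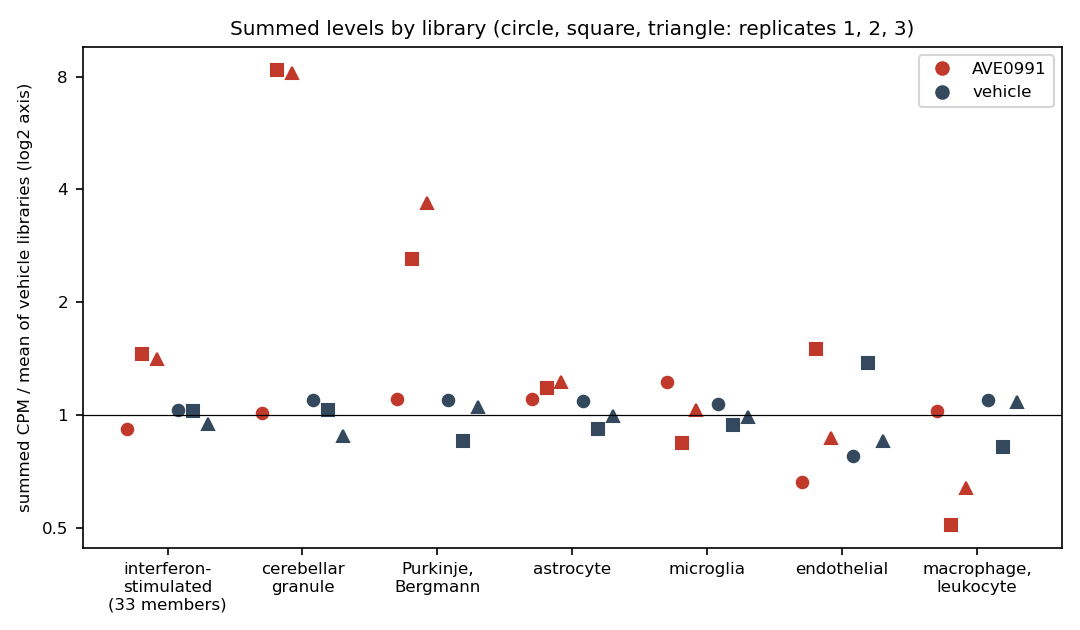
Summed CPM of the 33 members and of 6 marker lists in each library, divided by the mean over the vehicle libraries, on a log2 axis, with AVE0991 points (red) left of vehicle points (dark) and circle, square and triangle for replicates 1, 2 and 3. The members' sum was 172, 273 and 265 CPM in AVE0991 and 194, 192 and 177 CPM in vehicle libraries. The AVE0991 square and triangle lie above every vehicle point for the members, both cerebellar lists and the astrocyte list. They do not both do so for the microglial, endothelial or leukocyte lists. The AVE0991 circle lies below every vehicle point for the members. For the astrocyte list and the Purkinje cell and Bergmann glia list it lies above every vehicle point, by small margins.

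The authors' deposited table gave a log2 fold change of 0.80 for Stat2 with a q-value of 0.0435, the 1 member higher at a q-value under 0.05, where 1.78% of gene rows with a q-value were higher. The authors' deposited table gave -1.12 for Herc6 (q-value 0.000142) and -1.11 for Samd9l (q-value 0.000796), the 2 members lower at that level, where 2.93% of gene rows were lower. Ifit3 and Oasl2 had q-values of 0.0531 and 0.0535 in the authors' deposited table.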

How the data were processed

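The members, gene lists and alternatives were chosen with earlier results of these data known. Per the submitters' processing notes the authors aligned reads with HISAT to mm9; their versions and the counting program, annotation and strand setting are not stated there. Per the labels' protocols, RNA was depleted of ribosomal RNA and the second strand carried dUTP. The deposited estimated counts (81.6% whole on gene rows) were rounded to whole numbers. The authors' FPKM values, a unit worked out from the values, were used only to rank genes. The authors' deposited log2 fold changes, p-values and q-values came from DESeq2, per the file headers, and their sign was AVE0991 over vehicle.

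The 36210 gene rows were analysed in R 4.3.3 with edgeR 4.0.16: filterByExpr, TMM scaling, the robust form of its quasi-likelihood test with group as the single term, and Benjamini-Hochberg adjustment over 20363 genes. The common biological coefficient of variation was 24.7%. An SE was derived from the F statistic of each gene as |log2 fold change|/√F; means are ± SD of 3 libraries. Alternatives used DESeq2 1.42.0, limma 3.58.1, other scalings and filters, circular RNA rows in the same fit, a replicate block, left-out libraries and a GC correction, a per-library smooth of log2 deviation against the GC content of the longest M21 (GENCODE) transcript of a gene (33 of 33 members and 16864 of 20363 tested genes had one). The GC values come from GRCm38 while reads were aligned to mm9. The chi-square between any 2 libraries was at least 16.4 per gene, so no library was another one deposited again; this does not show that they come from separate animals. The fit was also run on simulated counts with differences of known size, and not all of these were called. The simulated counts held neither the GC trend nor the cerebellar difference of AVE0991 replicates 2 and 3. They therefore do not give the share of differences missed in these libraries. A difference that was not called is not shown to be absent. 12 members had counts that were not whole, so reads shared with other genes may be split in them: Ifit1, Ifit3, Oas1a, Mx1, Mx2, Eif2ak2, Rtp4, Trim25, Herc6, Parp14, Dtx3l and Xaf1.

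All 33 members were named, with every library's value for the 14 of smallest p and some others; of each pathway list the 3 of smallest p were named with Ifnar1, Ifnar2, Jak1 and Tyk2, except that 1 gene is not reported here. Ifit3b, Gfap, Aqp4 and Gabra6 were named beside them as a copy of a member or as defining markers.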

Additional observations from a re-analysis of the deposited data

How the results depend on the processing

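Of 33 members, the direction of all was kept under RLE and upper-quartile scaling, DESeq2, no filter, circular rows in the fit and the replicate block, and of the 29 tested at a mean of 1 CPM or more. Calls changed more. Against 0 members called in the chosen fit, DESeq2 called 3 higher and 2 lower (all genes 834 and 1183), limma-voom 1 and 2 (525 and 770), no filter 0 and 1 (58 and 379) and the 1 CPM filter 0 and 1 (18 and 329). Over all genes, circular rows in the fit left 1 higher and 1 lower, and the GC correction 1 and 0. Leaving out 1 library gave 0 to 7 members higher, 0 to 2 lower, 0 to 1386 genes higher and 0 to 995 lower; all calls were those without AVE0991 replicate 1. Without AVE0991 replicates 2 and 3, 0 genes were called in either direction; its lone AVE0991 library was assumed to vary like the vehicle libraries.

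Members higher in every AVE0991 library numbered 3 with RLE scaling (16.0% of all genes), 4 with DESeq2 scaling (11.2%), 3 with no filter (10.9%), 2 with the GC correction (10.2%), alone or with the block, and 3 without AVE0991 replicates 2 and 3 (30.3%). Leaving out 1 library gave 1 to 21, with 21 (25.5%) without AVE0991 replicate 1, 12 (20.3%) without vehicle replicate 1 and 5 (18.3%) without vehicle replicate 2.

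No pairing by replicate number was visible: deviations from the group means of same-numbered libraries correlated across genes at -0.02, 0.09 and -0.35. With so few libraries per group these correlations cannot exclude a pairing. With the replicate block 0 genes and 0 members were called, alone or with the GC correction, and the member median was 0.28. No AVE0991 library correlated best with the vehicle library of its own number. The highest values were 0.04 for AVE0991 replicate 1 with vehicle replicate 2, 0.31 for 2 with 3 and 0.39 for 3 with 1. Of the vehicle libraries, replicate 2 did correlate best with its own number (0.09).

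Signs turned in some members, and the cause was not tested. Irf1 was -0.06 with the GC correction, alone or with the block, and Mx1 0.28 with limma-voom. Leaving out 1 library, log2 fold changes ranged over -0.37 to 0.41 for Mx1, -0.08 to 0.29 for Eif2ak2, -0.08 to 0.43 for Rtp4 and -0.10 to 0.43 for Ifih1. Without AVE0991 replicates 2 and 3 the member median was -0.09 and 16 members turned: Irf3 to -0.07, Irf7 -0.12, Ifit1 -0.70, Ifit3 -0.00, Oas2 -0.24, Gbp3 -0.38, Rsad2 -0.05, Bst2 -0.03, Eif2ak2 -0.20, Rtp4 -0.42, Ddx58 -0.09, Ifih1 -0.55, Usp18 -0.11, Parp9 -0.28, Parp14 -0.18 and Ifi27 -0.15. The 4 members with a mean under 1 CPM in both groups (Mx1, Mx2, Oas2 and Ifi44) rest on few counts.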
